A study of Homo sapiens with 4 samples.

Results

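Genes used in G2 and mitosis were followed in single MCF10A cells. The set was 49 genes, taken as the rows of the count tables that carry the symbol of a listed G2/M gene, of 19577 gene rows in all. Every one of the 49 was found on all 4 plates. MCF10A is an untransformed human mammary epithelial cell line, and the cells here carried H2B-GFP, a fluorescent histone that marks nuclei. In every group, cells were seeded as a round patch on fibronectin-coated glass and grown for 6 days. The patch was then marked by phototagging, in which the dye JF646 was light-activated in the outer cells and JF646 with JF549 in the next layer, leaving the inside unmarked. In the low-resolution group the patch was divided into rings 1000 to 1500 μm wide, and in the high-resolution group into an outer band of 250 μm, a second band of 250 μm and the remaining interior. Live cells were sorted into plates of 384 wells, with 2 plates per group labelled as replicates, so n = 2 per group and the plate was the replicate. No untreated group without phototagging was included, and wells were not assigned to regions here, so each value is for a whole plate.

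These genes form a wave of expression late in the cell cycle. Cyclin B and CDK1 build up as DNA is copied, become active at the entry into mitosis and are switched off when the anaphase-promoting complex marks cyclin B for destruction. Around this switch, the Aurora and Polo kinases, the kinetochores, the spindle motors and the contractile ring carry out chromosome separation and cell division. Many of these genes share promoter elements, among them the CHR element TTTGAA, where repressor and activator complexes of the cell cycle bind, and the CCAAT box, which is bound by NF-Y.

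Promoter windows from RefSeq on GRCh38.p14, each of 300 bases from 250 before the gene's start to 50 after it, were matched to 41 of the 49 genes. TTTGAA, searched on both strands, was present in 29 of the 41 windows (70.7%), against 15.4% of 27305 promoter windows. CCAAT, searched on both strands, was present in 30 of 41 (73.2%), against 35.7% of all windows, and both motifs were present in 24 of 41 (58.5%), against 6.08%. The 250 bases before the start are shown for CDK1, CCNB2, PLK1 and CKS2, whose levels recur below, and for TACC3, in whose window neither motif was found. All lie on the plus strand, at chr10:60778081-60778330, chr15:59104896-59105145, chr16:23678639-23678888, chr9:89310945-89311194 and chr4:1720381-1720630 in that order. Capitals mark TTTGAA and CCAAT or their reverse complements:
CDK1: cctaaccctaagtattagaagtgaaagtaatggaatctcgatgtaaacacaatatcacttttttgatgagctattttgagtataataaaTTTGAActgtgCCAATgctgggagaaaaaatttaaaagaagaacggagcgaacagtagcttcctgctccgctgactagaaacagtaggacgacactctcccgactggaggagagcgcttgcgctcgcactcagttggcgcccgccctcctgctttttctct
CCNB2: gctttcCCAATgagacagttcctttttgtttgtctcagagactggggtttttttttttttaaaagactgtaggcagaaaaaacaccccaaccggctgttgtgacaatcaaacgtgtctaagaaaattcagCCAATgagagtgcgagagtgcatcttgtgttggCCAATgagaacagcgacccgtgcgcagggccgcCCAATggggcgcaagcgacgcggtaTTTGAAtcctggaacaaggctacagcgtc
PLK1: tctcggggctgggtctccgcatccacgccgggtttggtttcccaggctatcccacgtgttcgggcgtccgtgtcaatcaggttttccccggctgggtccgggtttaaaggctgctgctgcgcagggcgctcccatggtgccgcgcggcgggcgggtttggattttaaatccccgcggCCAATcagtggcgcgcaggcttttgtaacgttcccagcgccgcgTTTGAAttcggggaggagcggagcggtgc
CKS2: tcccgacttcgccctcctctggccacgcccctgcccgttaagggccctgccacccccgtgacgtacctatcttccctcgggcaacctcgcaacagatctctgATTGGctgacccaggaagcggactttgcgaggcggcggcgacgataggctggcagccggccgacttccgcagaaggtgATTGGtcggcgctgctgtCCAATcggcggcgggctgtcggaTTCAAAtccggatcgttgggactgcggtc
TACC3: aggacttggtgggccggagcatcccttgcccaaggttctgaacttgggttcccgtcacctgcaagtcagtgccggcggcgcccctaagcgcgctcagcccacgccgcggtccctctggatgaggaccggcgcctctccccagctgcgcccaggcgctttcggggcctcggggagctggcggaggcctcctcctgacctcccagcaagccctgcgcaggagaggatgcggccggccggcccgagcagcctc
The TTTGAA match began 29 bases before the start in CCNB2, PLK1 and CKS2, and 161 bases before it in CDK1. A match is a description of the letters in the window and not evidence of binding.

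In total, 1146 of 1536 wells passed the limits on features and mitochondrial counts (271 to 293 per plate), with a median of 30520 to 41248 counts per cell, highest on the high-resolution plates. The cells had the keratins of the line: KRT5 and KRT6A were found in at least 99.3% of cells on every plate, and KRT14, KRT17, ITGB4 and EPCAM in at least 43.9%. The basal marker TP63 was found in only 2.58% to 4.12% of cells. Among markers of other cell types, PTPRC, CDH5 and COL3A1 were found in at most 1.71% of cells. PECAM1, COL1A1 and CD68 were found in 17.3% to 47.1% of cells, but at no more than 0.211 UMIs per 10000. By the file names, low-resolution replicate 1 was read on a different flow cell from the rest.

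To compare cells of unequal depth, each cell was thinned to 10000 unique molecular identifiers (UMIs), and the members with at least 1 UMI were counted. The count fell into a large group of cells with few members and a long tail. A cell with at least 15 of the 49 was taken to have the program. This limit cuts a range and does not define a cell type, and 12, 12, 22 and 16 cells of the 4 plates had 13 to 16 members.

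On low-resolution replicate 1, 27.9% of cells had the program (80 of 287, 95% exact binomial interval 22.8% to 33.4%). On low-resolution replicate 2 the share was 23.9% (64 of 268, 18.9% to 29.4%). On the high-resolution plates it was 43.3% (123 of 284, 37.5% to 49.3%) and 46.05% (134 of 291, 40.2% to 51.96%). Both high-resolution plates thus lay above both low-resolution plates, and the intervals of the 2 experiments did not overlap. The mean was 25.9% ± 2.82 (SD, n = 2) at low resolution and 44.7% ± 1.94 (SD, n = 2) at high resolution, a difference of 18.8 percentage points or 1.73 times. Among the 3 plates of one flow cell, the shares were 23.9% at low and 43.3% and 46.05% at high resolution. The intervals cover counting error only.

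With limits of 10 to 35 members, both high-resolution plates again lay above both low-resolution plates. With at least 10 members, the shares were 34.1% and 29.1% at low resolution against 54.2% and 56.7% at high resolution. With at least 20 members, they were 21.3% and 19.03% against 30.99% and 37.1%. The gap narrowed at higher limits, with 12.5% and 11.2% against 16.2% and 16.15% at 30 members, and 5.57% and 7.09% against 7.39% and 9.97% at 35. At 40 members the plates overlapped, with 2.09% and 2.99% against 2.82% and 2.41%. The G2/M phase call of Seurat, which uses an overlapping gene list, gave 17.4% and 16.4% against 24.3% and 25.1%, so the gap was smaller by that call. The regions sorted and the phototagging cannot be told apart with this design.

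**Figure D1:**
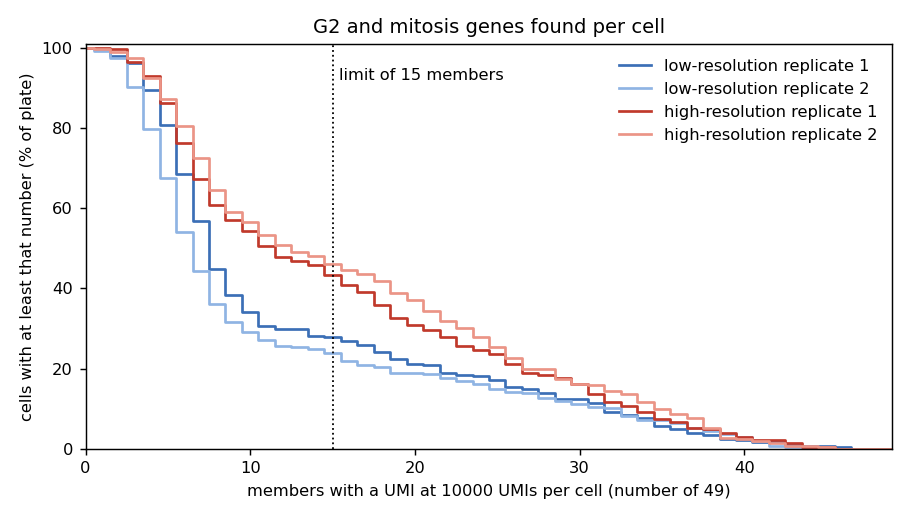
Share of the cells of each plate (vertical axis, %) in which at least a given number of the 49 members had a UMI (horizontal axis), with every cell thinned to 10000 UMIs. From 10 to 20 members, both high-resolution plates (red) lie above both low-resolution plates (blue). At the dotted limit of 15 members the shares are 43.3% and 46.05% against 27.9% and 23.9%.

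Cells with the program had a median of 25 to 28.5 members per plate, and the other cells 5 to 6. No cell had all 49, and the highest counts were 44 to 46. In UMIs, program cells held a median of 50 to 67 UMIs of the members per 10000, against 6 to 8 in the other cells. Wells that failed the limit on features held a median of 2 to 4 members without thinning, at a much lower depth. Program cells were also deeper before thinning, with medians of 40579 to 53694 UMIs against 25940 to 32453, and had a lower mitochondrial share (26.4% to 28.5% against 30.6% to 31.8%). Gene counts per spike-in count were 1.43 to 1.60 times as high in program cells.

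Program cells were not only cells called G2/M. Program cells held a median of 25 to 32 UMIs from 43 S-phase genes, and the other cells held 4 to 6. Of the program cells, 54.5% to 68.8% per plate were called G2/M by Seurat, and all but 1 of the rest were called S. The limit of 15 members thus took in cells called S as well as cells called G2/M, and nearly none called G1. The phase call uses a gene list that overlaps the members, so it is not an independent check of the limit. The scarcity of G1 calls follows in part from that overlap.

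Because the members define the program, their levels inside it are given as a description. The actin-binding protein of the contractile ring, ANLN, was the most abundant member, with a mean of 5.54 UMIs per 10000 in program cells and 0.472 in the others. It was found in 97.6% of program cells. The topoisomerase TOP2A, which untangles sister chromatids, averaged 3.06 UMIs in program cells and 0.137 in the others, and the proliferation marker MKI67, which coats mitotic chromosomes, averaged 3.03 and 0.183. These are counts of 3′ ends, so levels of different genes are not scaled by transcript length.

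Among the members that switch CDK1 on, the kinase CDK1 itself averaged 1.97 UMIs in program cells and 0.0796 in the others, and its partner cyclin CCNB1 averaged 2.46 and 0.232. The Polo kinase PLK1, which activates the switch, averaged 1.64 and 0.0894 UMIs. Even so, CDK1 was found in 68.9% and PLK1 in 58.2% of program cells at this depth. Across the 49 members, 28 were found in over 50% of program cells, and the program-to-other ratio ran from 2.51 for LBR, a receptor of the inner nuclear membrane, to 47.4 for CDCA8, a subunit of the chromosomal passenger complex. LBR, CKAP5 and G2E3 had the lowest ratios (2.51, 2.74 and 3.09). The tubulin TUBB4B belongs to a family of closely similar genes, so its count may include reads of relatives, and it had the highest share in cells without the program (54.2%).

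The members rose and fell together from cell to cell. Within a plate, the Spearman correlation of each member with the summed level of the other 48 had a median over members of 0.639 (mean of 4 plates, 271 to 293 cells each), against 0.062 for 7990 other genes. The plate medians were 0.594 and 0.574 at low resolution and 0.655 and 0.726 at high resolution. All cells of a plate share a library, and deeper cells had more of the program. With every cell at 10000 UMIs, the median over members was 0.470, and that of the other genes 0.015.

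ANLN followed the others most closely (rho 0.765, 0.657 to 0.895 over plates). Next came MKI67 (0.754), the kinetochore protein CENPF (0.751), the B-type cyclin CCNB2 (0.733) and the spindle protein NUSAP1 (0.720). The lowest were the ubiquitin ligase G2E3 (0.333), PSRC1, a spindle-associated protein (0.440), and CKAP5, which speeds microtubule growth (0.485). CDC25C, the phosphatase that activates CDK1, had 0.520 and LBR 0.533. PSRC1 and CDC25C were also scarce, at 0.0555 and 0.114 UMIs per 10000, while CKAP5 and LBR were found in 32.8% and 48% of cells without the program.

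The closest pair was CENPF with MKI67 (rho 0.740, 0.690 to 0.800 over plates). CCNB1 followed CCNB2 at 0.708 and CDK1 followed TOP2A at 0.707, while the lowest pair, G2E3 with LBR, had 0.238. Outside the set, the gene most like its sum was PRC1, which bundles microtubules in the dividing cell (0.783). The tubulins TUBB and TUBA1B had 0.776 each, the microtubule regulator STMN1 had 0.746 and CEP55, of the final cut between daughter cells, had 0.740. The lowest among genes found in 20% of cells or more on each plate were GRN (−0.49), AHNAK2 (−0.48) and the mitochondrial MT-CYB (−0.46). Of the list of 56 other G2/M genes all 56 had a positive rho (median 0.575), as did all 43 S-phase genes (median 0.477). Genes of G1 and cell cycle arrest had a median of −0.02, with 6 of 14 positive.

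Next, the summed counts of each gene were compared between high- and low-resolution plates, with levels given as UMIs per 10000 counts of a plate. In such sums, fewer cells with the program and less RNA per cell cannot be told apart. By edgeR's quasi-likelihood test with Benjamini-Hochberg adjustment over 12437 genes, 18 of the 49 members rose (adjusted p under 0.05) and 0 fell. Of all genes tested, 6.26% rose and 6.18% fell. The members' median log2 fold change was 0.42 (1.34-fold) and all 49 were positive, from 0.03 to 0.87, beside a median of −0.02 over all genes. For 31 members (63.3%) both high-resolution plates lay above both low-resolution plates, as for 25.5% of all genes, and for 0 members they lay below.

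With each plate left out in turn, the members' median log2 fold change was 0.32 to 0.58. Counts of calls in those fits are given without the share of all genes called in them. The count of 18 rested in part on single plates. It was 6 without low-resolution replicate 2, 6 without high-resolution replicate 2, and 22 without low-resolution replicate 1, which leaves 3 plates of the same flow cell. Only 5 members were called with each plate left out in turn: TACC3, PLK1, AURKB, NDC80 and CKAP5. Low-resolution replicate 2 had the lowest level of the 4 plates for 45 of the 49 members, and high-resolution replicate 2 the highest for 40. Between the low-resolution plates, the ratio of replicate 2 to replicate 1 had a median of 0.795 over members and reached 0.448 for HMGB2, a chromatin protein. Between the high-resolution plates it had a median of 1.16 and reached 1.62 for NUF2.

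PLK1 had 0.601 and 0.618 UMIs per 10000 on the low-resolution plates and 0.937 and 0.997 on the high-resolution plates. The groups did not overlap, and the rise was 0.70 on the log2 scale (SE 0.12, edgeR adjusted p = 0.00259). Of the members of the CDK1 switch, 4 of 9 rose: PLK1, CCNB2 (0.52), and the CDK-binding subunits CKS2 (0.49) and CKS1B (0.44). CCNB1 missed the threshold, with 1.11 and 0.964 against 1.195 and 1.495 UMIs per 10000 (log2 0.41, SE 0.13, edgeR adjusted p = 0.0512). CDK1 had 0.953 and 0.565 against 0.800 and 1.15, so its groups overlapped (log2 0.40, SE 0.20, edgeR adjusted p = 0.214).

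Of the Aurora kinases and the chromosomal passenger complex, which correct faulty attachments of chromosomes, 3 of 5 rose. AURKB, the kinase of that complex, had 0.285 and 0.220 against 0.420 and 0.440 UMIs per 10000 (log2 0.81, SE 0.14, edgeR adjusted p = 0.00409). TPX2, the activator of Aurora A, had 0.610 and 0.471 against 0.744 and 0.961 (log2 0.69, SE 0.15, edgeR adjusted p = 0.0102), and AURKA rose by 0.52. BIRC5 and CDCA8, of the same complex, were not called (log2 0.47 and 0.26).

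Of the spindle checkpoint and anaphase-promoting complex members, 3 of 5 rose, namely CDC20 (log2 0.66), BUB1 (0.69) and UBE2C (0.59). One of 6 kinetochore and centromere members rose. This was NDC80, which binds microtubules at the kinetochore, with 0.153 and 0.134 against 0.245 and 0.266 UMIs per 10000 (log2 0.87, SE 0.16, edgeR adjusted p = 0.00419). Its partner NUF2, the kinesin CENPE, CENPF, CENPA and HJURP were not called, and among them only CENPA had plates that did not overlap.

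Of the spindle and microtubule members, 5 of 13 rose: TACC3, HMMR, which helps place the spindle poles (0.52), KIF2C (0.58), DLGAP5 (0.57) and CKAP5 (0.59). TACC3, which steadies spindle microtubules together with CKAP5, had 0.506 and 0.498 against 0.815 and 0.873 UMIs per 10000 (log2 0.78, SE 0.12, edgeR adjusted p = 0.00139). In the cytokinesis group ECT2 (0.54) and ANLN (0.51) rose and KIF23 (0.36) did not pass. None of the 8 chromatin and nuclear envelope members was called by edgeR. MKI67 had 1.55 and 0.999 against 1.52 and 1.47 UMIs per 10000 (log2 0.27), and TOP2A had 1.61 and 0.917 against 1.32 and 1.65 (log2 0.28). For both genes low-resolution replicate 1 lay above at least 1 of the high-resolution plates, and low-resolution replicate 2 was the lowest.

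Other genes of the cell cycle were counted in the same fit. Of 56 other G2/M genes 20 rose and 0 fell, led by the separase ESPL1 (log2 0.88) and the transcription factor MYBL2 (0.75). Of 42 S-phase genes tested 19 rose and 0 fell, led by the recombination factor RAD51AP1 (1.03) and CDCA7 (1.03). Of 13 genes of G1 and arrest, the CDK inhibitor CDKN1A rose (0.38), and CCNG2 and BTG1 fell by 0.60 and 0.53 on the log2 scale. When the program cells were left out of the sums, 4 of the 45 members that could be tested rose, beside 4.18% of all genes in that fit. The cells left out were chosen by the count of these same members, so this fit is a description and not an independent test. The median log2 fold change over the 45 was 0.37, with 41 positive, beside 0.42 over the 49 members in the full sums and −0.02 over all genes of the reduced fit. The 4 were BIRC5 (log2 1.42), CCNB1 (0.93), CDC20 (0.82) and CKAP5 (0.54).

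**Figure D2:**
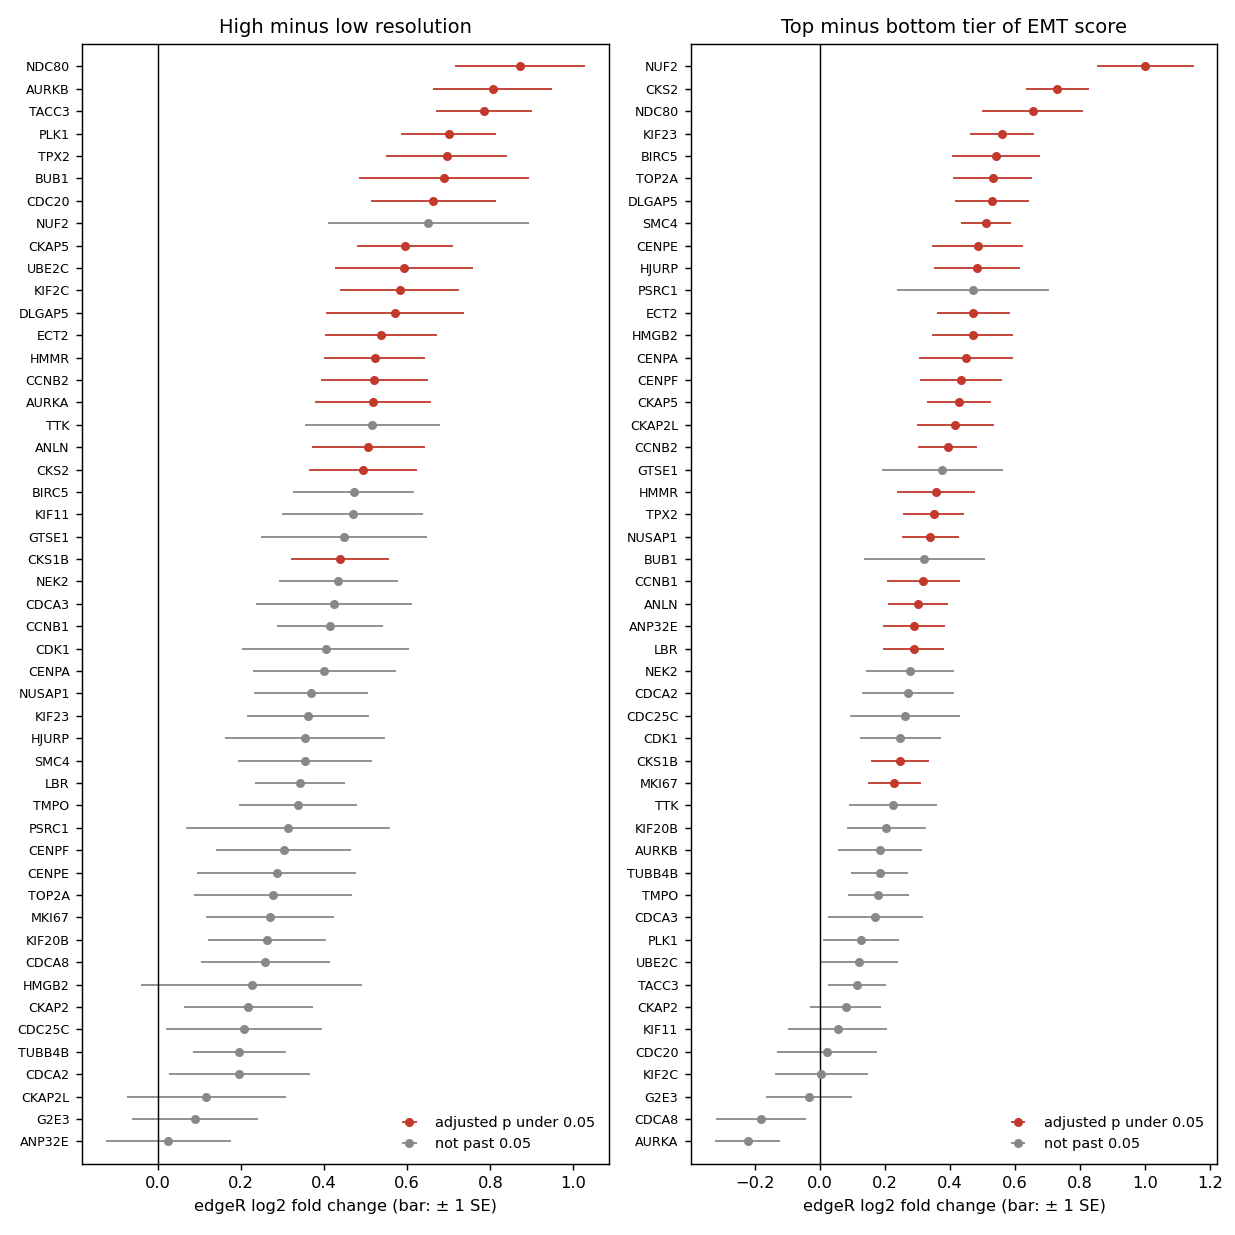
edgeR log2 fold change of each of the 49 members (points, with bars of ± 1 SE), for high minus low resolution on the left and for the top minus the bottom tier of the EMT score on the right. Red points have an adjusted p under 0.05. On the left all 49 lie above 0 and 18 are red, and on the right 46 lie above 0 and 26 are red.

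The study followed epithelial-mesenchymal transition (EMT), in which epithelial cells loosen their contacts and become motile. An EMT score was computed per cell as the GSVA score of a mesenchymal gene list minus that of an epithelial list, neither of which holds a member. Across cells, the summed member level had a rho of 0.238 ± 0.0478 with the score (SD, n = 4 plates, 0.178 to 0.295). Among cells without the program the mean rho was 0.253 (0.111 to 0.364). Among program cells the mean was 0.0174, over plates of opposite sign. It was −0.179 and −0.0615 on the low-resolution plates and 0.118 and 0.192 on the high-resolution plates. On high-resolution replicate 2 the rho was larger in program cells than in the others (0.192 against 0.111). The cells were divided by a count of these same members, so these values are a description. The summed level had a stronger negative relation with the mitochondrial share (mean rho −0.39) and a positive one with the depth of the cell (0.319). With cells at 10000 UMIs the rho with the score was 0.251.

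Single members were weakly related to the score. All 49 had a positive mean rho, with a median of 0.111 against 0.016 for 7990 other genes, of which 55.8% were positive. No member reached 0.3, as did 8.70% of the other genes in either direction. CKS2 was the highest at 0.290 (0.241 to 0.346 over plates), followed by BIRC5 (0.190) and SMC4 (0.178). The lowest were G2E3 (0.00952), CDCA8 (0.037) and AURKA (0.042).

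Of the 4 markers, the mesenchymal filament VIM had a positive mean rho with all 49 members (median 0.104, 0.026 to 0.20). The epithelial adhesion protein CDH1 had a negative one with 44 of 49 (median −0.04). The other 2 markers did not follow that division. Epithelial EPCAM was positive with 40 members (median 0.039), and mesenchymal FN1 was positive with 6 (median −0.04). For these 2 markers the plates disagreed. With the summed member level, FN1 had a rho of 0.129 and 0.00914 at low resolution and −0.0873 and −0.0528 at high resolution. EPCAM had −0.0743 and 0.0621 at low resolution and −0.0117 and 0.0241 at high resolution. CDH1 was negative (−0.216 to −0.0609) and VIM positive (0.0958 to 0.253) on all 4 plates. CKS2 stood at one end for all 4, with −0.18 for CDH1, −0.10 for EPCAM, 0.20 for VIM and 0.097 for FN1. Among 7990 other genes, the share with a positive mean rho was 62.5% for VIM, 50.01% for CDH1, 53.5% for EPCAM and 48.5% for FN1.

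**Figure D3:**
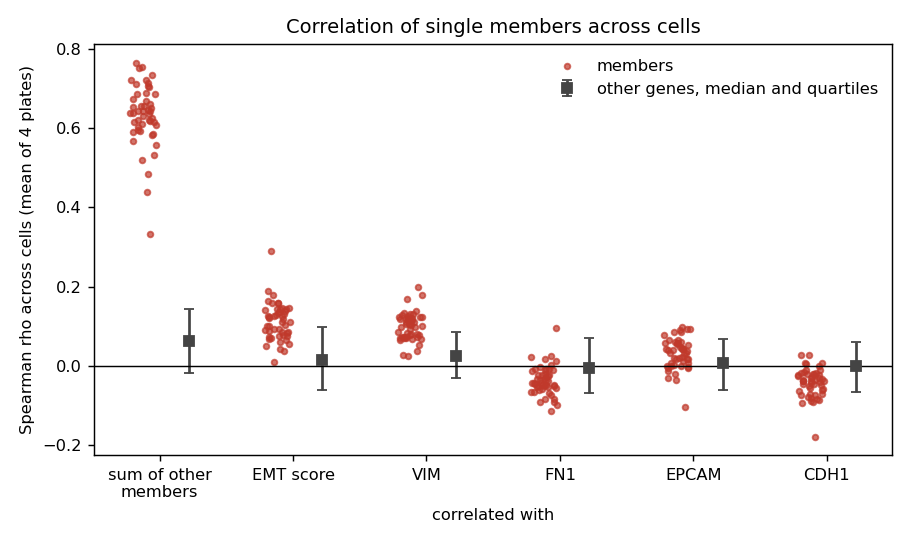
Spearman rho across cells, as the mean of 4 plates, of each member (red points) with the sum of the other members, the EMT score and 4 markers. Grey squares and bars are the median and quartiles of 7990 other genes. Members lie between 0.333 and 0.765 for the sum and below 0.3 for the score and all 4 markers.

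The cells of each plate were then ranked by the score and divided into 3 tiers of nearly equal size. The share of cells with the program in the bottom, middle and top tier was 17.7%, 31.3% and 34.7% on low-resolution replicate 1. On low-resolution replicate 2 it was 16.7%, 32.6% and 22.5%. On the high-resolution plates it was 38.5%, 40.9% and 50.5% for replicate 1 and 34.4%, 43.9% and 59.8% for replicate 2. The top tier was above the bottom tier on all 4 plates, by 5.81 to 25.4 percentage points (mean 15.1 ± 8.29, SD, n = 4), and on low-resolution replicate 2 the middle tier was the highest. The intervals of the top and bottom tiers overlapped on 3 plates, all but high-resolution replicate 2. The median score of program cells was not above that of the other cells on every plate. At low resolution it was 0.264 against −0.0856 on replicate 1 and −0.0435 against −0.259 on replicate 2. At high resolution it was slightly lower in program cells on replicate 1 (0.292 against 0.312) and higher on replicate 2 (0.365 against −0.117).

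Among program cells the number of members found moved little with the score, with plate medians of 26 to 31 in the bottom tier and 25.5 to 28.5 in the top tier. The mitochondrial share fell with the score on every plate, from a median of 31.7% to 33.8% in the bottom tier to 25.9% to 29.04% in the top tier. Its part in the result was not tested.

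**Figure D4:**
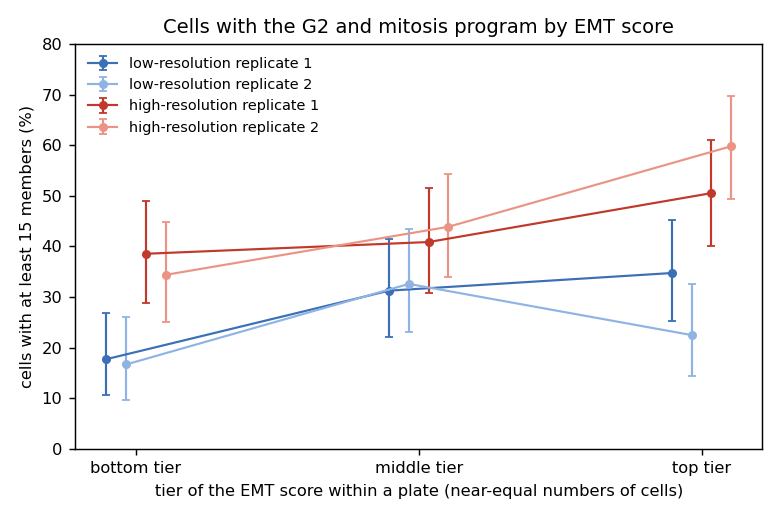
Share of cells with at least 15 of 49 members (vertical axis, %) in the bottom, middle and top tier of the EMT score of each plate, with exact 95% binomial intervals as bars. All 4 lines end higher than they start, by 5.81 to 25.4 percentage points, and the high-resolution plates (red) lie above the low-resolution plates (blue) in every tier.

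In counts summed per plate and tier, 26 of 49 members rose from the bottom to the top tier and 0 fell (edgeR quasi-likelihood test with the plate as a block, adjusted over 10703 genes). The score divided the transcriptome broadly, since 20.3% of all genes rose and 20.9% fell. The members' median log2 fold change was 0.30 (1.23-fold), with 46 of 49 positive, beside a median of −0.0014 over all genes. For 29 members (59.2%) the top tier was higher on all 4 plates, as for 33.1% of all genes. DESeq2 called 17, and without the plate as a block 2 were called, at a median log2 fold change of 0.31. These counts, and those with a plate left out, are given without the share of all genes called in the same fit. Without low-resolution replicate 1, high-resolution replicate 1 or high-resolution replicate 2, the count was 17, 17 and 16, and 12 of the 26 were called with each plate left out in turn.

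CKS2 had 1.14, 1.08, 1.68 and 1.72 UMIs per 10000 in the bottom tier of the 4 plates and 2.29, 1.89, 2.35 and 3.38 in the top tier (low-resolution plates first). It was higher in the top tier on every plate (log2 0.73, SE 0.10, edgeR adjusted p = 9.57e-05). NUF2 had 0.0846, 0.0514, 0.0986 and 0.164 in the bottom tier and 0.210, 0.0874, 0.231 and 0.319 in the top tier, the largest change among the members (log2 1.00, SE 0.15). The next were its partner NDC80 (0.65), KIF23, the kinesin of the central spindle (0.56), and the passenger protein BIRC5 (0.54).

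By role, all 6 kinetochore and centromere members rose, as did 3 of 3 cytokinesis members and 6 of 8 chromatin and nuclear envelope members. The last included TOP2A (log2 0.53) and MKI67 (0.23, edgeR adjusted p = 0.0437). In the CDK1 switch 4 of 9 rose, with CCNB1 at 0.32 (edgeR adjusted p = 0.0402), CDK1 at 0.25 (0.135) and PLK1 at 0.13 (0.416). Of the spindle members 5 of 13 rose and of the Aurora and passenger members 2 of 5.

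None of the 5 checkpoint and anaphase-promoting complex members was called, and 0 had an unadjusted p under 0.05. CDC20, which directs that complex to its targets, had a log2 change of 0.02. AURKA was lower in the top tier on all 4 plates without passing the test. It had 0.440, 0.349, 0.514 and 0.609 UMIs per 10000 in the bottom tier and 0.345, 0.338, 0.471 and 0.589 in the top tier (log2 −0.22, SE 0.10, edgeR adjusted p = 0.1005). Whether the roles differ from one another was not tested.

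Of 54 other G2/M genes tested against the score 27 rose and 2 fell, with FAM64A (log2 1.01) and SGO2 (0.81), a guardian of sister chromatid cohesion, at the top. The 2 that fell were WEE1, the kinase that holds CDK1 inactive, by 0.93 on the log2 scale, and CTCF by 0.45. Of 42 S-phase genes 12 rose and 0 fell, led by BRIP1 (0.95) and UHRF1 (0.59). Of 13 genes of G1 and arrest, 3 rose, MXD4 (0.62) and CDKN1C (0.57) the most, and 5 fell, CCNG2 by 0.72 and CDKN1B by 0.48 the most.

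The change from the bottom to the top tier was compared between the experiments by an interaction term in the same model. At an adjusted p under 0.05, edgeR called 1 of 49 members, CDK1, where 1.02% of all genes were called in that direction, 2.05% in the other and 3.06% in either. CDK1 went from 0.925 and 0.490 to 1.01 and 0.447 UMIs per 10000 on the low-resolution plates, and from 0.668 and 1.01 to 1.09 and 1.44 on the high-resolution plates. It rose on both high-resolution plates, and on the low-resolution plates it was higher on one and lower on the other.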

How the data were processed

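Single MCF10A cells were sequenced by SORT-seq, and per the labels' processing notes reads were handled with STAR 2.7.3a on hg38 and cells with Seurat 4. The authors deposited expected counts per gene and well, which are UMIs corrected for repeat draws and not scaled, and the whole UMIs were recovered from them. The study's limits on wells were used (2000 to 9000 features, mitochondrial counts under 40%). Fewer cells passed here in each experiment than the study analysed, and the reason was not tested. Doublets were not called. Plate sums (plate totals 11709628 to 14992348 counts) were rounded and tested with edgeR 4.0.16 (TMM, filterByExpr, Benjamini-Hochberg at 0.05) over all genes; DESeq2 1.42.0 was an alternative. Each SE is the fold change over the root of its F statistic. GSVA was run with an implementation written for this work, 1 fit per experiment. Phase calls used Seurat 5.3.0. Correlations across cells are descriptions without p-values. No p-value is given for shares of program cells, which are a score over the members.

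The 2 plates of a group are labelled as replicates. For high against low resolution, p-values measure the spread between plates. For the tiers and the interaction, where the plate was a block, they measure how the difference between tiers varied from plate to plate. All 384 well names recur on every plate, so names do not identify cells across plates. Members, lists and alternatives were chosen with earlier results of these data known. Named were CDK1, CCNB1, PLK1, MKI67, TOP2A, the 5 highest and 5 lowest members by correlation with the rest, the 5 largest called changes in each comparison, the 5 highest and 3 lowest outside genes by correlation, and the 2 largest rises and falls in each list. Further members were named after their values were seen, to account for each role. The edgeR step was tested on simulated data: at a dispersion of 0.01 it recovered 84% of 2-fold and 39% of 1.5-fold changes between experiments (12445 genes, 5 false calls), and 72% and 58% between score tiers (10726 genes, 3 false calls). At a dispersion of 0.05 these were 6% and 0%, and 51% and 4%. Both dispersions were set by choice and not estimated from these plates, so the values do not give the power of the tests here. Alternatives are listed with their effect in the closing section. Region labels of wells were not analysed here, and 1 epithelial marker of the list is not reported here.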

Additional observations from a re-analysis of the deposited data

Results flagged for a closer look

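Of the 49 members, only CDK1 was called for a change across tiers of the EMT score that differed between experiments. That is 2.04% of the members, beside 3.06% of all genes called in either direction. The call is thus no more frequent among members than among all genes. The interaction was 0.60 on the log2 scale (SE 0.15, edgeR adjusted p = 0.0354). Fitted alone, the high-resolution plates gave 0.53 (edgeR adjusted p = 9.17e-05) and the low-resolution plates −0.07 (edgeR adjusted p = 0.673). The call was lost with DESeq2 (0.62 on the log2 scale, adjusted p = 0.389) and with the mean z-score difference in place of GSVA (edgeR, 0.28 on the log2 scale, adjusted p = 0.466). It held without high-resolution replicate 2 (0.69 on the log2 scale, edgeR adjusted p = 0.0383) and was lost without each of the other 3 plates (edgeR adjusted p = 0.142 to 0.218), where the interaction was 0.75 without low-resolution replicate 1, 0.51 without low-resolution replicate 2 and 0.52 without high-resolution replicate 1.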

How the results depend on the processing

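Of 107 alternative values, 75 were counts of calls within 1.5 times of the reported count or values that moved by less than the spread between plates. Of the others, 14 counts of calls fell and 2 rose by more than 1.5 times, and 16 values moved by more than that spread. Among the values that are not counts, 0 changed sign. Sign changes were not marked for counts of calls, and counts of 0 falls that stayed 0 are among the 75. Leaving out 1 of a group's 2 plates cannot move its mean share by more than that spread. The members' median log2 interaction did change sign with the mean z-score difference in place of GSVA, from 0.13 to −0.22. Between experiments, the 18 rises became 4 with program cells left out (median log2 0.37 against 0.42), and 6 to 26 with each plate left out in turn. The replicate numbers were not used to pair the plates in the main fit. Deviations of same-numbered plates had r = −0.0238 over 12437 genes. With only 2 pairs, this value cannot exclude that same-numbered plates were handled together. With a replicate block 26 members rose. From the bottom to the top tier, the 26 rises became 17 with DESeq2, 2 with no replicate block (median log2 0.31 against 0.30), 37 with no mitochondrial limit, 34 with the mean z-score difference, 16 on low-resolution plates only, 28 on high-resolution plates only, and 16 to 24 with each plate left out in turn. For the difference between experiments, the 1 rise became 0 with DESeq2 and 0 with the mean z-score difference, which gave 2 falls (BIRC5 and CDC20), and with each plate left out there were 0 to 1 rises and 0 to 1 falls. The cause was not tested. Except for the fit without program cells, these counts are given without the share of all genes called in the same fit.

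The mean share of program cells, 25.9% at low and 44.7% at high resolution, was 31.6% and 55.5% with at least 10 members, 20.1% and 34.05% with at least 20, 44.01% and 70.5% at full depth, and 16.9% and 24.7% by the Seurat G2/M call. With no mitochondrial limit the high-resolution share was 40.7%. The difference of 18.8 points was 23.8, 13.9, 26.5 and 7.77 under the first 4 of these. The median rho among members was 0.637 as the mean of plate medians and 0.478 at equal depth. The rho of the summed level with the EMT score was 0.291 with no mitochondrial limit and 0.0174 in program cells only, where its sign differed between experiments. With 2 plates per group, a member that was not called is not shown to be alike in both, and 4 of 49 members were too scarce to test without the program cells.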
